A study of Rattus norvegicus with 8 samples.

Results

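The integrated stress response was followed through 10 genes named by symbol: Atf4, Atf3 and Ddit3, which encode transcription factors, Trib3 and Chac1, which lie downstream of them, the metabolic genes Asns, Sesn2 and Ddit4, the secreted factor Gdf15 and the endoplasmic reticulum chaperone gene Hspa5. They were chosen as a list and not by a rule on their values, although earlier results of these data were known. Each symbol matched 1 of the 32623 genes in the deposited tables. Single-cell RNA libraries had been made from the spinal cord of 8-week female Wistar rats collected 7 days after surgery, with 2 libraries in each of 4 groups. The sham rats had a laminectomy alone, and the mild, moderate and severe groups had in addition a weight-drop contusion of the thoracic cord from rising heights, so that every group shared the anaesthesia, the exposure of the cord and the enzymatic dissociation of the tissue. Each gene was read as unique molecular identifiers (UMIs, single counted transcripts) in 55455 cells kept of 68658 deposited, of which 47156 were placed in a cell type by marker genes, none of them a member of the list, and 8299 (15.0%) were left without a type.

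The integrated stress response begins when a kinase senses misfolded protein, amino acid shortage, haem shortage or viral RNA and phosphorylates the initiation factor eIF2. General protein synthesis then falls, while the Atf4 messenger is translated more, and ATF4 raises genes for amino acid supply, for feedback and, when stress persists, for cell death through Ddit3 (CHOP). Because ATF4 is set largely by translation, the level of its messenger does not measure its activity, and Atf3, Ddit4, Sesn2 and Gdf15 also answer to immediate early, hypoxic, glucocorticoid or p53 signals.

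The promoters of the members were read because ATF4 binds a known element, the C/EBP-ATF response element, and the unfolded protein response acts through another, the ER stress element. RefSeq windows from 250 bases before to 50 bases after the start of transcription (build GRCr8) were found for 9 of the 10 members. TGATGNAA, the response element as searched on both strands, was present in 1332 of 33469 windows (3.98%) and in the windows of Chac1 and Trib3. CCAAT followed after 9 bases by CCACG, the ER stress element, was present in 22 of the windows (0.0657%), that of Hspa5 among them. A match is only a match of letters in this window, and the remaining 6 members with a window held neither. Capitals mark the matched element in the stretches below, each written along the gene's own strand, and the element of Chac1 and Trib3 reads on the opposite strand.
Chac1 promoter, chr3:126795924-126796011, plus strand: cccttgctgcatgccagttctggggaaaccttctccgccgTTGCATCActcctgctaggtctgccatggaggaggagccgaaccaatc
Trib3 promoter, chr3:161275507-161275594, minus strand: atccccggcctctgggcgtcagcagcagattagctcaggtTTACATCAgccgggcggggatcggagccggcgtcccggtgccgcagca
Hspa5 promoter, chr3:38452933-38453031, plus strand: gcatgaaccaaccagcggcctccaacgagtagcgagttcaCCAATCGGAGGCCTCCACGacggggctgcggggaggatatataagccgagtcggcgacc

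The libraries held 2336 to 10016 kept cells and 23535282 to 99689125 UMIs, with medians of 2745 to 10836 UMIs per cell. The largest type was macrophages/microglia (27881 cells, 525 to 7312 per library), followed by neutrophils (6667), oligodendrocytes (3884), oligodendrocyte precursors (2985), fibroblasts (1939), T cells/NK cells (1393), erythroid cells (1039), dendritic cells (410), endothelial cells (399), B cells (291), astrocytes (142) and mural cells (76). Sham replicate 1 stood apart: it gave 4297 of the neutrophils, against 1 in sham replicate 2, and neutrophil markers summed to 3508 CPM (counts per 1000000 UMIs of the type in that library) within its gated macrophages/microglia, against 66.0 to 246 CPM in the other libraries. Sham replicate 2 was unlike it: 2088 of its 2336 kept cells (89.4%) were macrophages/microglia, against 5.71% in sham replicate 1. Contrasts with sham therefore rest on 2 unlike libraries. No more than 25 barcodes were shared by any pair of libraries. The study's text speaks of as many spinal cords as there are libraries, while the labels name no rat, so the p-values measure the spread between libraries, in which variation between rats and technical variation cannot be told apart. In every gated type the leading 10 genes included its own markers and none from the list of another gated type. Because the cells had been gated on these markers, this is no independent check of the gate. Siglech, the leading gene of dendritic cells, was also on the list of microglia markers used below.

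Summed over the kept cells, Atf3 (ENSRNOG00000003745) gave 408640 UMIs, Hspa5 (ENSRNOG00000018294) 362318, Atf4 (ENSRNOG00000017801) 119524, Ddit3 (ENSRNOG00000006789) 45493, Gdf15 (ENSRNOG00000019661) 35286 and Ddit4 (ENSRNOG00000057078) 22391. Sesn2 (ENSRNOG00000042785) gave 8666, Asns (ENSRNOG00000007546) 5327, Trib3 (ENSRNOG00000007319) 1673 and Chac1 (ENSRNOG00000014387) 1074. The last pair therefore rests on few molecules in any one type and library.

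The members did not share a cell type. Neutrophils, short-lived phagocytes of the blood, held the highest mean levels of Ddit3, Trib3, Sesn2 and Ddit4, while Gdf15 and Atf3 were highest in macrophages/microglia, Asns in oligodendrocyte precursors and Hspa5 in fibroblasts. The means cover the libraries in which a type held 20 cells or more, and these differ between types. Erythroid cells gave the lowest mean of Atf3, Atf4, Ddit3, Ddit4, Gdf15, Hspa5 and Sesn2. Levels were compared with edgeR's quasi-likelihood test on counts summed per library and type, each type against the mean of the others with the library as a term, Benjamini-Hochberg adjusted over 12584 genes. The median difference over all genes in this fit lay between -0.50 (erythroid cells) and 0.35 (macrophages/microglia) on the log2 scale, so a small difference in one type is partly that type's shift.

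**Figure D1:**
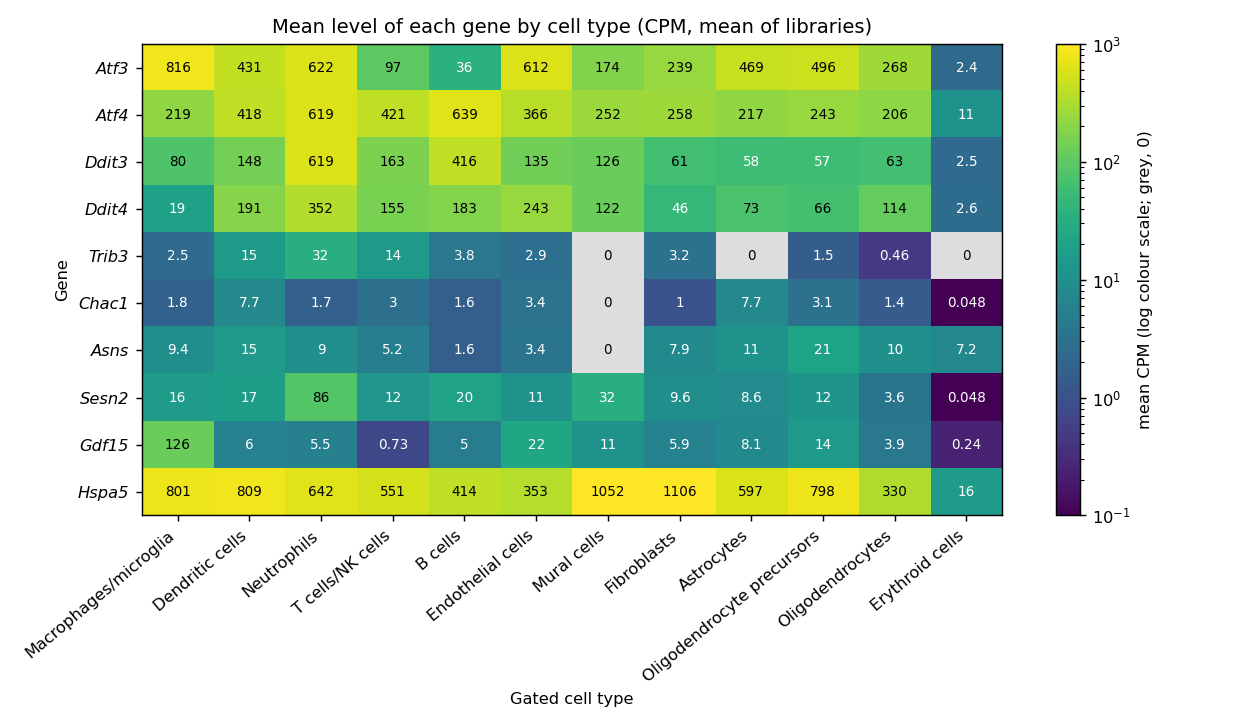
Mean level in CPM (colour, log scale, with the value printed) of each gene (rows) in each gated cell type (columns), averaged over the libraries in which the type held 20 cells or more. Ddit3 at 619 CPM in neutrophils and Gdf15 at 126 CPM in macrophages/microglia stand above the other types in their rows, and erythroid cells are the lowest column for 7 of the 10 genes but not for Asns.

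Neutrophils were higher in 6 of the 10 members, against 29% of all genes tested that were higher in them, and lower in 0, against 21.5%. Ddit3, the factor that links lasting stress to cell death, averaged 619 ± 419 CPM (SD, n = 7 libraries) there, 416 ± 261 in B cells (n = 3), 163 ± 111 in T cells/NK cells (n = 7) and 80.1 ± 46.8 in macrophages/microglia (n = 8), and was higher in neutrophils by 2.91 ± 0.19 (SE, log2 scale, adjusted p = 2.7e-20). Sesn2, an inhibitor of growth signalling, averaged 86.5 ± 29.2 CPM in neutrophils and a mean of no more than 32.4 in any other type, a difference of 3.56 ± 0.19 (adjusted p = 3.3e-24). Ddit4 (REDD1), a brake on the same growth pathway, averaged 352 ± 161 CPM in neutrophils and 19.2 ± 11.7 in macrophages/microglia, which were called higher and lower respectively. Trib3, a feedback pseudokinase, averaged 32.3 ± 13.3 CPM in neutrophils, 15.1 ± 4.52 in dendritic cells and 14.1 ± 7.28 in T cells/NK cells, and was called higher in all 3. Atf4 and Hspa5 were the other members higher in neutrophils. The mean of Hspa5 there, 642 ± 292 CPM, nevertheless lay below those of fibroblasts, mural cells, dendritic cells, macrophages/microglia and oligodendrocyte precursors. The call is against the mean of the other types and not against each of them.

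Macrophages/microglia were higher in Atf3, Gdf15, Hspa5 and Sesn2 and lower in Ddit4. Those 4 of 10 are close to the 39.4% of all genes that were higher in this type, and 7.59% were lower. Gdf15, a secreted stress factor of the TGF-beta superfamily, averaged 126 ± 195 CPM in macrophages/microglia, with 1.59 CPM in the lowest library and 589 in the highest, and a mean of at most 22.3 CPM in any other type (4.06 ± 0.34 higher, adjusted p = 7.3e-16). Atf3, an early stress-induced repressor and activator, averaged 816 ± 717 CPM there, 622 ± 718 in neutrophils and 96.8 ± 110.3 in T cells/NK cells, where it was lower (adjusted p = 3.3e-05). Endothelial cells averaged 612 ± 449 CPM over 4 libraries, all sham or severe, where macrophages/microglia held 135 to 395 CPM. In the edgeR fit Atf3 was higher by 2.01 ± 0.42 in endothelial cells and 1.71 ± 0.31 in macrophages/microglia (adjusted p = 9.1e-05 and 4.2e-06). The highest mean thus does not rank these types within the same libraries.

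Dendritic cells were higher in Atf4, Chac1, Ddit4, Hspa5 and Trib3 (background 24.3% higher, 8.51% lower), and T cells/NK cells were higher in Atf4, Ddit4 and Trib3 and lower in Atf3 and Gdf15 (background 26% and 13%). B cells were higher in Atf4 and Ddit3 and lower in Hspa5 (background 15.8% and 12.3%). Endothelial cells were higher in Atf3 and Ddit4 and lower in Hspa5 (background 21.1% and 6.5%). Hspa5 (BiP), the chaperone that holds the stress sensors inactive, was the one member higher in fibroblasts, at 1106 ± 505 CPM (n = 7), where Ddit3, Ddit4 and Sesn2 were lower (background 35.1% and 11.9%).

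The glial types were on the low side. Oligodendrocytes were higher in 0 members and lower in Atf4, Ddit3, Gdf15, Hspa5 and Sesn2 (background 34.9% higher, 16.8% lower), and astrocytes were lower in Atf4, Ddit3 and Sesn2 (background 20.2% and 7.49%). Oligodendrocyte precursors were lower in Atf4, Ddit3, Ddit4 and Sesn2 and higher in Asns, the enzyme that makes asparagine, which averaged 21.1 ± 4.52 CPM in them (background 34.4% and 15.7%). Mural cells had no member called in either direction (background 7.72% and 2.75%), at 2 libraries. Asns was called higher in erythroid cells (background 7.06% and 2.5%), although its mean there, 7.25 ± 5.93 CPM, lay below that of 7 other types. With library size alone as the scale, 7 members were called in erythroid cells in place of 1. The share of all genes called on that scale is not given, so this count is not a result about the members.

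Neighbours in the order of the types were compared as well. For each member, types next to each other in the order of mean log2 level were compared within libraries by an exact two-sided sign-flip permutation test on log2(CPM + 10). Of 96 such tests 0 passed an adjusted p of 0.05 and 3 an unadjusted one, and only 35 had enough libraries to reach the unadjusted one. The number of libraries bounds the exact p from below, so a pass after adjustment over 96 tests was hardly possible. The lack of a call therefore does not say how firm the order is. Trib3 was higher in neutrophils than in dendritic cells in 6 of 6 libraries (0.85 ± 0.28 SD, exact p = 0.0312, the smallest that 6 libraries allow), and Ddit4 was higher in fibroblasts than in macrophages/microglia in 7 of 7 (exact p = 0.0156, the smallest for 7). Gdf15 was higher in macrophages/microglia than in oligodendrocyte precursors in 6 of 8 (1.60 ± 1.72 SD, exact p = 0.0312), and after adjustment the 3 stood at p = 0.8.

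The share of cells holding a transcript was compared after each cell was thinned to 1000 UMIs. Ddit3 was found in 37.2% ± 22.7 of thinned neutrophils (SD, n = 5 libraries), 8.08% ± 4.81 of macrophages/microglia (n = 8) and 0.158% of erythroid cells (n = 3), the last an upper value for the part of free RNA in those cells. The erythroid libraries were sham replicate 1 and both severe ones, so the mild and moderate libraries have no such value. Erythroid cells had a median depth of 7397 UMIs, against 1928 in neutrophils, in which the part of free RNA was not measured. The neutrophil share rests on 5112 cells, with 1284 too shallow to thin. Gdf15 was found in 7.08% ± 8.14 of macrophages/microglia and in 0 of 997 erythroid cells at this depth, where a count of 0 permits up to 0.301%. Before thinning the erythroid cells held 5 Gdf15 UMIs in 5 of 1034 cells. Without thinning Ddit3 was found in 45.3% of macrophages/microglia and 40.8% of neutrophils, whose median depths were 10701 and 1928 UMIs, an order opposite to that of the thinned shares. The limit covers counting error at the thinned depth only.

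Injury groups were compared first in macrophages/microglia, the largest type, by edgeR's quasi-likelihood test over 13250 genes with all 8 libraries in one fit. Of the 10 members, 1 was called in mild minus sham (background 8.13% of genes), 2 in moderate minus sham (3.71%), 3 in severe minus sham (10.2%) and 1 in severe minus mild (2.74%). The median of the 10 members was -0.07, 0.87, 0.09 and 0.03 in that order, beside -0.01, 0.02, -0.08 and -0.04 for all genes. With library size alone as the scale the median of all genes was -0.12 in mild minus sham, -0.58 in severe minus sham and -0.43 in severe minus mild, so differences in the severe group are relative to that shift. In sums over a type, fewer expressing cells and less RNA per cell cannot be told apart.

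**Figure D2:**
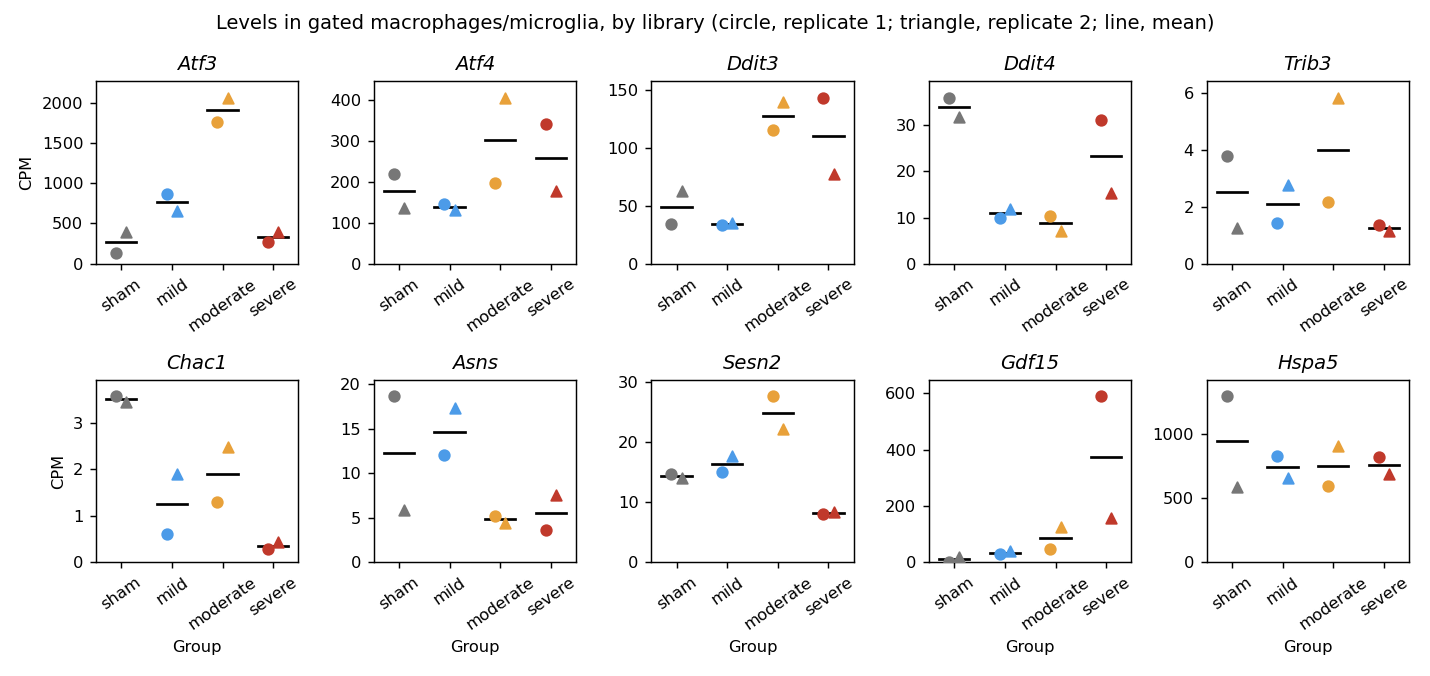
CPM in gated macrophages/microglia (vertical axes from 0) for each gene in the sham, mild, moderate and severe groups; each point is 1 library and the line is the mean of the 2. The moderate libraries are highest for Atf3 (1761 and 2061), and the severe libraries for Gdf15 (589 and 158).

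Atf3 had its highest levels in the moderate group, which was not tested against mild or severe in any cell type. Its level was 135 and 395 CPM in the sham libraries, 869.9 and 650.1 in mild, 1761 and 2061 in moderate and 267 and 391.6 in severe. The moderate libraries lay above all others, and the severe libraries lay within the sham range. The difference was called in moderate minus sham (2.85 ± 0.57, log2 scale, adjusted p = 0.0392) and not in mild minus sham (1.55 ± 0.54, adjusted p = 0.101) or severe minus sham (0.75 ± 0.53, adjusted p = 0.367). Leaving out any 1 of the 6 injured libraries ended the call, at adjusted p of 0.0645 to 0.201, and the fit of the 2 groups alone gave 0.156. Immediate early genes, among which Atf3 is often counted, summed to 11970 and 8256 CPM in the moderate libraries and 7006 to 11468 CPM in the rest; their part in the result was not tested.

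Ddit3 was high in both of the heavier injuries. The sham libraries held 34.4 and 62.8 CPM, mild 33.7 and 34.8, moderate 115 and 139, and severe 143 and 77.4. All 4 moderate and severe libraries lay above all 4 sham and mild libraries. The call was made in severe minus sham (1.62 ± 0.42, adjusted p = 0.0464) and severe minus mild (2.07 ± 0.42, adjusted p = 0.0464), and moderate minus sham did not pass (1.41 ± 0.41, adjusted p = 0.0979). Both calls stood close to the threshold: they were lost under the stricter gate (adjusted p = 0.0632 and 0.0679) and when 7 and 6 of the 8 libraries, respectively, were left out in turn.

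Atf4 itself was not called in any contrast. It stood at 220.03 and 136 CPM in sham, 146 and 131 in mild, 197 and 405 in moderate and 341 and 177 in severe, with sham overlapping every injured group. Trib3 and Chac1, both direct targets of the pathway, gave single-digit values in every library. Trib3 ranged from 1.17 to 5.84 CPM with no call. Chac1, which breaks down glutathione, was 3.57 and 3.45 CPM in sham, 0.619 and 1.91 in mild, 1.30 and 2.49 in moderate and 0.295 and 0.429 in severe, so that sham was above and severe below every other group. In severe minus sham it fell by 2.71 on the log2 scale (SE 0.67, adjusted p = 0.0417), a call lost without sham replicate 2, without any 1 moderate or severe library (adjusted p of 0.057 to 0.177) and under the stricter gate (0.0641).

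Among the metabolic members, Ddit4 was lower after the lighter injuries. Its levels were 35.9 and 31.7 CPM in sham, 9.80 and 11.9 in mild, 10.4 and 7.19 in moderate and 31.2 and 15.3 in severe. The mild and moderate libraries lay below every sham and severe library. In mild minus sham it fell by 1.52 (SE 0.36, adjusted p = 0.0434), in moderate minus sham it fell by 1.86 (SE 0.36, adjusted p = 0.0379), and in severe minus sham the difference was -0.05 ± 0.35 (adjusted p = 0.933). Without either mild or either moderate library both calls were lost (adjusted p of 0.0604 to 0.283), as was the mild one without sham replicate 2 (adjusted p = 0.0645). Sesn2 was 14.7 and 14.1 CPM in sham, 15.1 and 17.8 in mild, 27.7 and 22.2 in moderate and 8.02 and 8.48 in severe. The groups of Sesn2 did not overlap, but no contrast passed (moderate minus sham 0.87 ± 0.25, adjusted p = 0.0962). Asns was 18.7 and 5.93 CPM in sham, 12.03 and 17.4 in mild, 5.26 and 4.41 in moderate and 3.60 and 7.59 in severe. The sham pair enclosed 3 of the 6 injured libraries, and no contrast was called.

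The group means of Gdf15 were ordered by severity. It was 1.59 and 18.8 CPM in sham, 28.7 and 39.4 in mild, 48.97 and 126 in moderate and 589 and 158 in severe. Every injured library lay above both sham libraries and both severe libraries above all others. The severe minus sham difference was 5.47 ± 1.14 (adjusted p = 0.0254), and the mild and moderate differences, 1.65 ± 0.97 and 2.96 ± 1.02, did not pass (adjusted p = 0.286 and 0.133). Without severe replicate 1 the severe difference was 4.32 and no longer passed (adjusted p = 0.105). Markers of blood-derived macrophages summed to 11586 and 8789.6 CPM in the severe libraries and 1816 to 6606 CPM in the others. Those of microglia summed to 466 and 919.5 CPM in sham, 172 and 221 in mild, 234 and 120 in moderate and 79.7 and 177 in severe. The microglia sums were thus below sham in all injured groups and not in severe alone. All 7 genes of the blood-derived list were detected in every library.

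Hspa5 was 1298 and 592 CPM in sham, 829.9 and 663 in mild, 597 and 911 in moderate and 826 and 691 in severe. The injured libraries lay between the sham pair, and no contrast was called (differences of -0.20 to 0.41).

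Because those markers moved with the groups, the gated macrophages/microglia were divided by marker genes into 5995 microglia-type and 9933 blood-derived-type cells, and the classes were compared within libraries (edgeR, library as a term, 10572 genes). The rest of the 27881 gated cells fell in neither class. This fit was added after the data had been seen. Of the 10 members 7 were called, beside 54.5% of all genes, with 5 lower and 2 higher in microglia-type cells. Gdf15 was lower in microglia-type cells in 8 of 8 libraries, by 2.29 on the log2 scale (SE 0.30, adjusted p = 2.8e-05). Its microglia-type levels were 0 and 8.10 CPM in sham, 7.71 and 21.1 in mild, 19.6 and 96.6 in moderate and 99.7 and 22.4 in severe. Its blood-derived-type levels were 6.75 and 72.1 CPM in sham, 37.9 and 54.7 in mild, 61.4 and 127 in moderate and 642 and 230 in severe. The sham blood-derived-type values rest on 77 and 31 cells (6 and 24 Gdf15 UMIs). The microglia-type value of severe replicate 1 rests on 87 cells. Within each class both severe libraries lay above both sham libraries, while in microglia-type cells severe replicate 2 lay below moderate replicate 2, and the groups were not tested within a class.

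**Figure D3:**
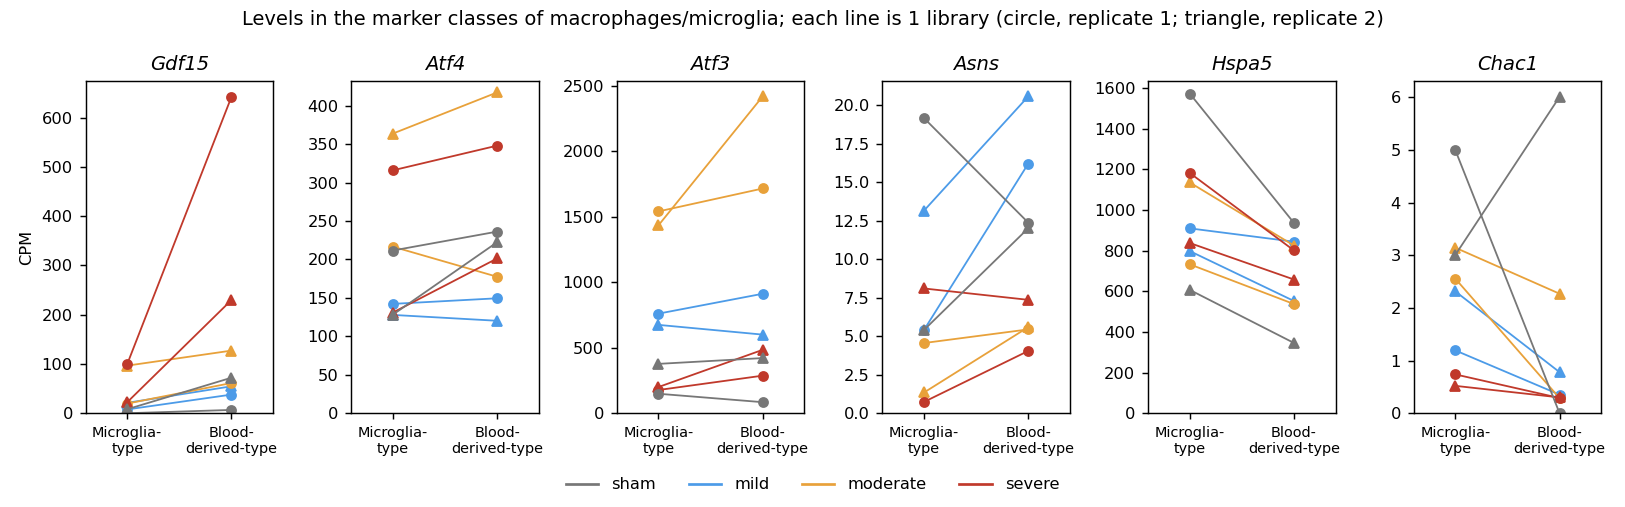
CPM of 6 genes in microglia-type and blood-derived-type cells (vertical axes from 0, differing between panels); each line joins the classes within 1 library. Gdf15 is higher and Hspa5 lower in the blood-derived-type cells of all 8 libraries, while the lines of Atf3 and Atf4 run in both directions.

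Asns was lower in microglia-type cells by 0.86 (SE 0.23, adjusted p = 0.00706), Trib3 by 0.76 (SE 0.25, adjusted p = 0.0206), Atf3 by 0.52 (SE 0.18, adjusted p = 0.0273) and Atf4 by 0.39 (SE 0.10, adjusted p = 0.0039). Chac1 was higher in them (1.25 ± 0.34, adjusted p = 0.00799), as was Hspa5 (0.29 ± 0.09, adjusted p = 0.0172). With library size alone as the scale the calls of Atf3, Atf4 and Trib3 were lost (adjusted p = 0.134, 0.151 and 0.0909), and the median of all genes moved from 0.04 to 0.27. The Hspa5 call was lost when each class needed at least 100 cells in a library (0.11, adjusted p = 0.212). The calls of Gdf15, Chac1 and Asns held under every alternative run on this fit.

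Outside macrophages/microglia a contrast could be fitted where the type held 20 cells or more in both libraries of both groups. Neutrophils, T cells/NK cells and fibroblasts had 1 such sham library and dendritic cells had 0, so severe was compared with mild, a contrast added after the data had been seen.

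In neutrophils 3 of 8 members tested were called in severe minus mild, beside 4.3% of genes. Ddit3 was 97.3 CPM in the sham library, 259.5 and 215 in mild, 714 and 1088 in moderate and 951 and 1006 in severe, and rose in severe minus mild by 2.45 ± 0.44 (adjusted p = 0.00672). Atf4 was 222, 302 and 377, 649 and 816, and 1193 and 774 CPM in the same order, and rose by 2.02 ± 0.44 (adjusted p = 0.0176). Atf3 went the other way, with 36.6 CPM in sham, 463 and 559.7 in mild, 1219 and 1944 in moderate and 72.6 and 58.5 in severe, and fell by 2.48 (SE 0.45, adjusted p = 0.00679). The median depth of these cells differed between the groups, at 815 and 799 UMIs in mild and 1580 and 1688.5 in severe; its part in the result was not tested. Leaving out either mild library ended all 3 calls (adjusted p of 0.147 to 0.292), with differences of the same direction, and the Atf4 call was also lost without severe replicate 1 (adjusted p = 0.0831).

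Dendritic cells gave the same pair of directions, with 3 members called of 5 tested, beside 2.52% of genes. The mild libraries held 72 and 22 of these cells and the severe ones 101 and 106. The stricter gate left 13 and 2 in mild, under the 20 needed, so the contrast was not checked under it. Atf3 was 477 and 480.01 CPM in mild and 132 and 122 in severe and fell by 1.75 (SE 0.30, adjusted p = 0.00681). Ddit3 was 47.9 and 72.5 CPM in mild and 177 and 160.03 in severe and rose by 1.77 ± 0.38 (adjusted p = 0.023). Hspa5 was 511 and 607 CPM in mild and 1299 and 991 in severe and rose by 1.21 ± 0.28 (adjusted p = 0.039). Without mild replicate 1 or mild replicate 2 none of the 3 passed (adjusted p of 0.076 to 0.555), nor did Hspa5 without severe replicate 1 (0.182). The moderate libraries, 769 and 603 CPM for Atf3 and 234 and 198 CPM for Ddit3, were above mild in both.

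In T cells/NK cells Ddit3 was the 1 member called, beside 3% of genes. It was 29.7 CPM in sham, 72.3 and 81.03 in mild, 214 and 353 in moderate and 203 and 190.1 in severe, and rose in severe minus mild by 1.58 ± 0.37 (adjusted p = 0.0214). The call was lost in DESeq2 (adjusted p = 0.0538) and without either mild library (0.187 and 0.434). Atf3 in T cells/NK cells was 78.2 and 45.02 CPM in mild, 169 and 316 in moderate and 39.04 and 22.8 in severe, again highest in the moderate libraries. Fibroblasts had 0 of 10 members called in severe minus mild, beside 1.71% of genes, and Atf3 in them was 335 and 348 CPM in mild and 105 and 241 in severe. The mild library at 348 CPM was the highest of the 7 fibroblast libraries, so the moderate libraries were not the highest in this type. Endothelial cells had 0 called in severe minus sham, beside 0.323% of genes.

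**Figure D4:**
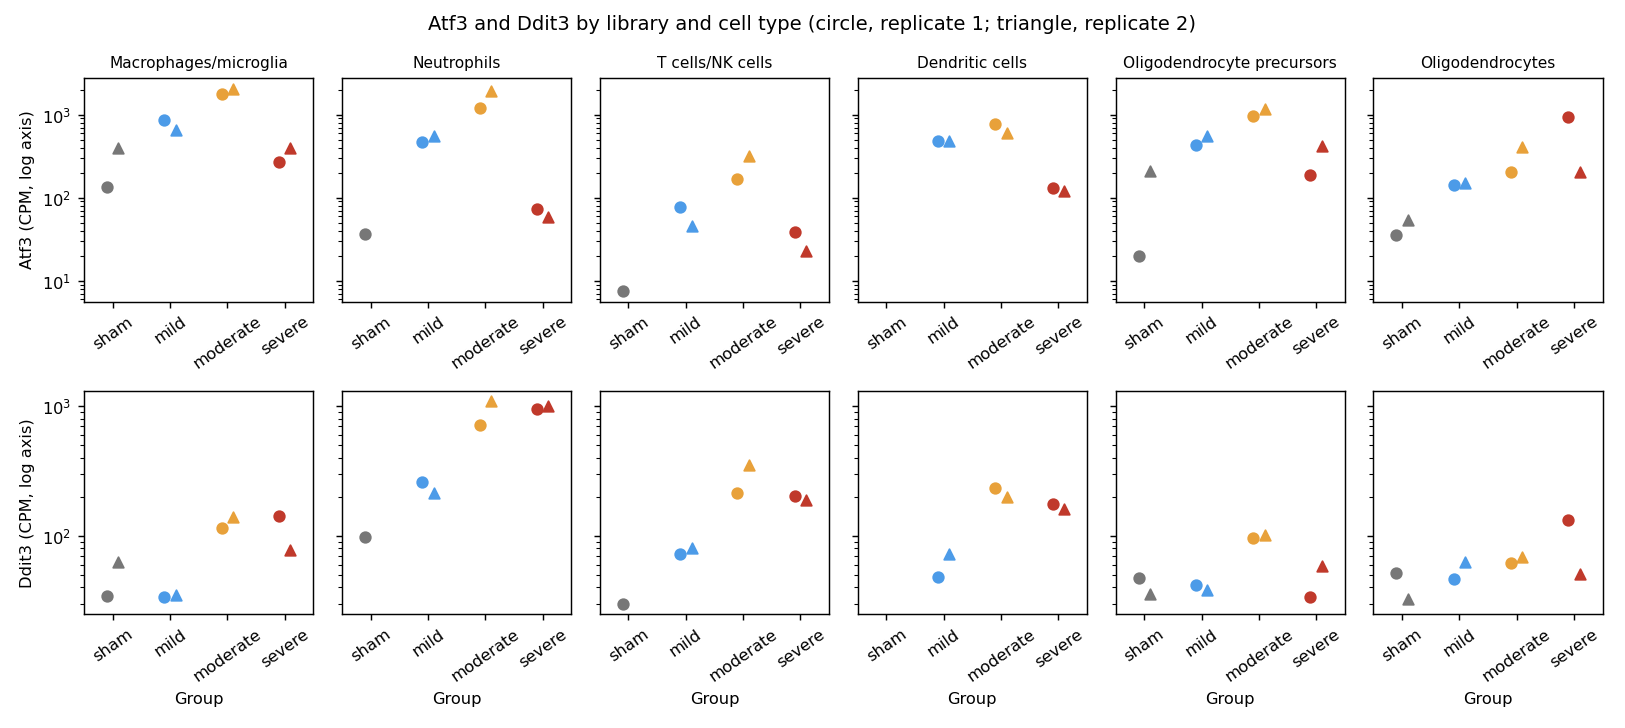
CPM (log axes) of Atf3 (upper row) and Ddit3 (lower row) in 6 cell types by group; each point is 1 library in which the type held 20 cells or more. Atf3 is highest in the moderate libraries of 5 of the 6 types. Ddit3 is high in moderate and severe libraries of the 4 immune types. In oligodendrocytes severe replicate 1, with 69 cells, is the highest for both (948 and 133 CPM). Fibroblasts, not drawn, had their highest Atf3 level in a mild library.

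The precursors of oligodendrocytes also had their highest Atf3 levels in the moderate libraries. Atf3 was 20.03 and 212 CPM in sham, 427 and 559.8 in mild, 972 and 1171 in moderate and 190.2 and 415 in severe. The sham values rest on 60 and 69 cells. The moderate minus sham difference was 3.12 ± 0.64 (adjusted p = 0.0108), the one call between injury groups that passed under every alternative run. For this type these were DESeq2, a term for the replicate number and the leaving out of each library. The stricter gate and other scaling and filters were run on the injury contrasts of macrophages/microglia and not on those of the precursors. Ddit3 was 47.6 and 35.5 CPM in sham and 95.4 and 102 in moderate, the only group with both libraries above both sham libraries, and rose by 1.28 ± 0.33 (adjusted p = 0.0308, and 0.0596 to 0.109 without any 1 sham or moderate library). Moderate minus sham thus called 2 of the 9 members tested, beside 8.08% of genes. Mild minus sham, severe minus sham and severe minus mild called 0, beside 6.72%, 11.5% and 5.66%.

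Oligodendrocytes, the myelin-forming cells, had their highest Atf3 level in a severe library. Atf3 was 35.7 and 53.2 CPM in sham, 144 and 149.9 in mild, 204 and 403 in moderate and 948 and 205 in severe. Every injured library lay above both sham libraries. The value of 948 CPM, in severe replicate 1, rests on 69 cells, and that of sham replicate 2 on 38. The other severe library lay within the range of the moderate pair. In moderate minus sham Atf3 rose by 2.67 ± 0.65 (adjusted p = 0.0478) and in severe minus sham by 4.05 ± 0.68 (adjusted p = 0.0225), the latter not past the threshold without sham replicate 1 (adjusted p = 0.195). Ddit4 was 212 and 132 CPM in sham and 81.6 and 57.4 in moderate and fell by 1.52 (SE 0.35, adjusted p = 0.0404), and Hspa5 was 226 and 224 CPM in sham and 531 and 386 in mild and rose by 1.04 ± 0.28 (adjusted p = 0.0477). Leaving out sham replicate 1 or any mild or moderate library ended the calls of Ddit4 and Atf3 in moderate, and each of those libraries and sham replicate 2 that of Hspa5. Of the 7 members tested the number called was 1 in mild minus sham (7.7% of genes), 2 in moderate minus sham (4.17%), 1 in severe minus sham (1.3%) and 0 in severe minus mild (3%).

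Whether oligodendrocytes differed from macrophages/microglia in these changes was tested directly, by a term for type and group beside the library in one fit of 13335 genes, added after the data had been seen. Hspa5 differed in mild minus sham, where oligodendrocytes exceeded macrophages/microglia by 1.39 ± 0.31 (adjusted p = 0.0321, beside 2.12% of genes called), and in severe minus mild, by -1.51 ± 0.30 (adjusted p = 0.0259, beside 1.99%). Asns differed in moderate minus sham by 2.28 ± 0.44 (adjusted p = 0.0147, beside 2.65%): it was 8.58 and 2.31 CPM in sham and 12.1 and 14.7 in moderate oligodendrocytes, while in macrophages/microglia it was 18.7 and 5.93 in sham and 5.26 and 4.41 in moderate. Severe minus sham called 0 members, beside 4.7%. Atf3 did not pass in severe minus mild (2.39 ± 0.67, adjusted p = 0.0902). Both Hspa5 calls were lost with library size alone (adjusted p = 0.0686 and 0.135) and without either mild library, the first also without sham replicate 1 and the second without either severe library (adjusted p of 0.0784 to 0.203), and the Asns value without sham replicate 1 or moderate replicate 2 (adjusted p = 0.261 and 0.17).

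The wider pathway was described in macrophages/microglia by 6 lists. Over all genes 4.54%, 2.6%, 6.23% and 1.68% were called higher in mild, moderate and severe minus sham and severe minus mild, and 3.58%, 1.12%, 3.96% and 1.06% lower. Of 15 kinases and eIF2 regulators, 1 rose and 1 fell in mild minus sham and 0 were called elsewhere. In mild minus sham Eif2ak2, the kinase that senses double-stranded RNA, fell by 0.98 (SE 0.23, adjusted p = 0.0396), with 37.9 and 39.4 CPM in sham and 18.1 and 18.3 in mild. Eif2b1, a subunit of the exchange factor that phosphorylated eIF2 blocks, rose by 0.96 ± 0.24 (adjusted p = 0.0454), with 19.9 and 18.3 CPM in sham and 38.5 and 30.1 in mild. None of the 6 tested genes of amino acid synthesis was called in any contrast, and their medians ran from -0.97 to -0.12. Of the 12 tRNA synthetase genes matched, Aars alone was called: it was 27.01 and 19.2 CPM in sham, 46.3 and 47.7 in mild and 14.3 and 13.6 in severe, rose in mild minus sham by 1.17 ± 0.24 (adjusted p = 0.0311), and in severe minus mild it fell by 1.36 (SE 0.24, adjusted p = 0.0313). Of 9 amino acid transporters, Slc7a11, the cystine carrier, rose in severe minus mild by 2.32 ± 0.49 (adjusted p = 0.0492) from 1.93 and 1.70 to 4.31 and 9.28 CPM, beside 7.55 and 3.68 in sham.

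Of 9 tested partners and other targets of ATF4, Sqstm1, an autophagy receptor, rose in moderate minus sham by 1.68 ± 0.37 (adjusted p = 0.0484), from 75.3 and 89.1 to 171 and 336 CPM, and 0 others were called. Of 19 chaperone and degradation genes of the unfolded protein response, in severe minus sham Sel1l fell by 1.01 (SE 0.22, adjusted p = 0.0299) and 0 others were called, beside the lack of a call for Hspa5. Across cell types 17 of 19 genes of the same list and 11 of 12 tRNA synthetase genes were higher in macrophages/microglia, beside 39.4% of all genes. In neutrophils, the type that was higher in Ddit3, Trib3 and Sesn2, 10 of 19 and 9 of 12 were lower, beside 21.5% of all genes.

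Lists of other processes to which some members also answer were read beside them. Of 14 hypoxia genes, 1, 3 and 6 rose in mild, moderate and severe minus sham and 1 in severe minus mild, with 0 lower, beside 4.54%, 2.6%, 6.23% and 1.68% of all genes higher. Vegfa, the endothelial growth factor, was 11.3 and 3.35 CPM in sham and 285 and 98.4 in severe and rose by 5.35 ± 0.74 (adjusted p = 0.00679), highest in severe replicate 1 as Gdf15 was. Of 9 tested p53 genes 2 rose in severe minus sham, among them Cdkn1a, the cell cycle inhibitor, at 43.7 and 31.9 CPM in sham and 209 and 141 in severe (2.73 ± 0.37, adjusted p = 0.00647). Plk3 and Ccng1 rose in mild minus sham. Of 16 immediate early genes Jun alone was called: in severe minus sham it fell by 1.46 (SE 0.27, adjusted p = 0.0184). Of 8 glucocorticoid genes Klf9 rose in moderate and Nfkbia in severe minus sham. Whether these processes had a part in the changes of Gdf15, Ddit4 or Atf3 was not tested.

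The genes whose levels followed each member most closely were sought over 66 points, each 1 library and type, that share libraries and depth, so the Pearson correlations of log2(CPM + 10) are descriptions. Among the members Atf4 and Ddit3 had the highest (0.86), followed by Ddit3 and Sesn2 (0.74), while Ddit4 and Gdf15 had the lowest (-0.34). Outside the list Hspa5 was followed most closely by Manf (0.85), Rab5if and Dnajc3, of which Manf and Dnajc3 are endoplasmic reticulum stress genes. Gdf15 was followed by Abca1 (0.69), Fam3c and Npl, Sesn2 by Pygl (0.85), Dck and Fem1c, Ddit3 by Wsb1 (0.89), Susd6 and Arid5a, and Atf4 by Ddx5 (0.92), NEWGENE_619861 and Eif1. Trib3 was followed by Jaml (0.86), Neurl3 and Stx11, Ddit4 by Syf2 (0.80), Tdp2 and Eif1, and Atf3 by Chmp6 (0.78), AABR07072356.1 and Ap2s1. Chac1 and Asns had the lowest values, 0.56 with Runx2 and 0.63 with Slc25a20.

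Within single macrophages/microglia thinned to 1000 UMIs, Ddit3 was found more often in cells that held Atf4. The medians over libraries were 9.89% of cells with an Atf4 UMI and 6.74% of cells without, and the ratio was above 1 in 8 of 8 libraries (1.1 to 2.09). Sesn2 was found in 2.72% and 1.53% of those cells, also higher in 8 of 8. Hspa5 differed little, at 51.02% and 47.8%, higher in 6 of 8. Atf3 and Ddit4 were higher in 7 of 8, Asns and Gdf15 in 6 of 8 and Trib3 in 5 of 7. Chac1, found in only 47 cells, went the other way, at 0.0768% and 0.215%, higher in 2 of 7. The same was not counted over all genes, so these counts are not results about the list. The values are descriptions of cells from 8 libraries and were not tested.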

How the data were processed

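Single-cell RNA libraries (8, 10x 3′ chemistry) were deposited as raw UMI counts per gene and cell, made by the authors with Cell Ranger (5.0.1 in the matrix headers) against Rnor_6.0. Cells with more than 10% mitochondrial UMIs, the 7.7% with the highest doublet score in each library (scanpy 1.11.5) and cells beyond 2 SD in UMIs or genes were removed. A cell was gated to a type when at least 3 of its markers were detected and its scaled marker score exceeded that of the next type 1.5 times; of 132 markers 123 were matched. Counts were summed per library and type (20 cells or more) and tested with edgeR 4.0.16 (TMM, quasi-likelihood, R 4.3.3, Benjamini-Hochberg adjusted over all genes tested, called under 0.05). CPM used the total of the type in that library. Genes with few counts were left out by filterByExpr. All 10 members were described, with, per list and contrast, at most the 3 called genes with the largest change in macrophages/microglia and the 3 genes most like each member over libraries and types. DESeq2 1.42.0, other scaling, filters, gates and fits and the leaving out of each library were alternatives. The members and lists were chosen with earlier results of these data known.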

Additional observations from a re-analysis of the deposited data

Results flagged for a closer look

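For 5 pairs of member and contrast, both libraries of one group lay above both of the other in one cell type and below in another. The share of all genes that met the same rule was not counted, so the number of pairs is not a result about the list. The values are log2 ratios of the group mean CPM, and these differences between types were not tested except where a tested value is given. In severe minus mild Atf3 was 1.97 in oligodendrocytes, and it was -1.92 in dendritic cells, -0.98 in fibroblasts, -1.21 in macrophages/microglia, -2.96 in neutrophils, -0.705 in oligodendrocyte precursors and -0.995 in T cells/NK cells. Atf4 was 0.679 in dendritic cells, 0.905 in macrophages/microglia, 1.54 in neutrophils, 0.355 in oligodendrocyte precursors and 0.711 in T cells/NK cells, against -0.417 in fibroblasts. Ddit4 was 0.0976 in fibroblasts, 1.09 in macrophages/microglia and 0.49 in neutrophils, against -0.703 in dendritic cells and -0.648 in oligodendrocyte precursors. Hspa5 was 1.03 in dendritic cells, 1.12 in neutrophils and 0.577 in T cells/NK cells, against -0.399 in fibroblasts, -0.402 in oligodendrocyte precursors and -1.08 in oligodendrocytes. These ratios were not rescaled by TMM. In the edgeR fits the fibroblast difference was -0.08 for Atf4 and -0.06 for Hspa5 (adjusted p = 0.859 and 0.919). That of Hspa5 was -0.10 in oligodendrocyte precursors and -0.86 in oligodendrocytes (adjusted p = 0.877 and 0.123). In moderate minus sham Asns was 1.3 in oligodendrocytes, against -1.35 in macrophages/microglia and -0.324 in oligodendrocyte precursors.

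The difference between oligodendrocytes and macrophages/microglia was tested, and 3 values passed: 1.39 for Hspa5 in mild minus sham, -1.51 for Hspa5 in severe minus mild and 2.28 for Asns in moderate minus sham (edgeR, adjusted p = 0.0321, 0.0259 and 0.0147). Atf3 in severe minus mild did not pass (adjusted p = 0.0902). Its severe levels in oligodendrocytes were 948 CPM, from 69 cells, and 205 CPM, from 215 cells.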

How the results depend on the processing

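The 30 single-gene results are those called in the main fits of injury groups, of the classes and of the difference between types. None of them turned its direction. Because they were picked by their calls and the alternatives reuse the same libraries, a kept direction is no independent support. The order of neutrophils and macrophages/microglia in the share of cells with Ddit3 did turn without thinning. Of 332 values of 30 single-gene results under an alternative, 222 passed the threshold and 110 did not; Atf3 in oligodendrocyte precursors (moderate minus sham) and Asns, Chac1 and Gdf15 between microglia-type and blood-derived-type cells passed under every alternative run. The alternatives for types other than macrophages/microglia, the class fit and the fit of the difference between types were chosen after seeing the data. Fewer alternatives were run for these fits than for the injury contrasts in macrophages/microglia. The cause of each change was not tested. With 2 libraries a group, and as few as 22 cells of a type in a library, differences of low members were not detectable.

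The replicate numbers did not pair the libraries: deviations of same-numbered macrophage/microglia libraries correlated at 0.122, -0.177, -0.0991, 0.00858, 0.243 and -0.236. With the replicate block, genes called in macrophages/microglia numbered 479, 236, 846 and 197 in mild, moderate and severe minus sham and severe minus mild (1077, 492, 1351 and 363 without it) and members 0, 1 and 0 in the first, second and last (1, 2 and 1 without). Under the block, oligodendrocytes had 353, 240 and 68 genes in mild, moderate and severe minus sham (753, 408 and 127 without) and 0 and 0 members in the first pair, endothelial cells 90 genes and 1 member, and oligodendrocyte precursors 1 member each in mild and severe minus sham. Here and below, some member counts stand without the number of genes called. The share of all genes is not given for them, so they are not results about the members.

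In macrophages/microglia, in the same order of 4 contrasts, DESeq2 called 2304, 1523, 2497 and 1145 genes, and 2, 4 and 4 members in the first, second and last. Without the filter there were 2685, 2043, 2795 and 1534 genes and 3, 5 and 4 members in those 3. A fit of only the groups compared called 0, 0, 245 and 1204 genes (3215 and 2159 at an unadjusted p under 0.05 in the first pair) and 0, 0, 0 and 4 members. Library size only gave 2709 genes in severe minus sham and 691 in severe minus mild, and the stricter gate 1 and 0 members there. DESeq2 called 97 genes and 1 member in endothelial cells, 558 genes in fibroblasts, 290 in oligodendrocytes (severe minus sham), 114 and 0 members in T cells/NK cells and 1 member in oligodendrocyte precursors (severe minus sham).

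Against the other types, members called at 100 cells or more were 0 in B cells, 3 in dendritic cells, 1 in endothelial cells and 3 in oligodendrocyte precursors. For the alternatives of this fit the share of all genes called is not given, so the counts are not results about the members. Under the stricter gate they were 0 in B cells, 2 in dendritic cells, 2 in erythroid cells, 1 in fibroblasts and 2 in oligodendrocytes, with library size only 7 in erythroid, 2 in fibroblasts and 2 in mural cells, and without the filter 3 in dendritic cells. For the difference between oligodendrocytes and macrophages/microglia, no filter gave 853, 1102, 1313 and 957 genes and 3, 1 and 4 members in moderate and severe minus sham and severe minus mild. Library size only gave 0 members in mild minus sham, 537 genes in moderate minus sham, 1 member in severe minus sham, and 116 genes and 0 members in severe minus mild. Unthinned shares were 73.0% for Atf3, 45.3% for Ddit3 and 25.5% for Gdf15 in macrophages/microglia and 1.51% for both Atf3 and Ddit3 in erythroid cells.

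With each library left out in turn, macrophages/microglia had 6 to 2051, 13 to 1352, 254 to 1997 and 58 to 1153 genes and 0 to 2, 0 to 4, 0 to 3 and 0 to 3 members. Oligodendrocyte precursors had 100 to 1281, 227 to 1088, 81 to 2190 and 163 to 1359 genes and 0 to 1, 1 to 2, 0 to 1 and 0 to 0 members. Oligodendrocytes had 27 to 1426, 37 to 663, 19 to 727 and 27 to 528 genes and 0 to 2, 0 to 2, 0 to 1 and 0 to 3 members. The ranges were 29 to 305 genes and 0 to 3 members in dendritic cells, 0 (450 unadjusted) to 728 and 0 to 3 in endothelial cells, 60 to 210 and 0 to 0 in fibroblasts, 8 to 622 and 0 to 4 in neutrophils, and 20 to 421 and 0 to 1 in T cells/NK cells. Members called by type, again without the share of all genes, were 1 to 3 in astrocytes and B cells, 3 to 5 in dendritic, 2 to 3 in endothelial and 1 to 3 in erythroid cells, 2 to 4 in fibroblasts, 4 to 5 in macrophages/microglia and T cells/NK cells, 0 in mural cells, 6 to 8 in neutrophils, 3 to 6 in precursors and 1 to 6 in oligodendrocytes. The class fit gave 4963 to 5937 genes and 5 to 8 members, and the difference between types 148 to 853, 64 to 1242, 264 to 1602 and 55 to 1031 genes and 0 to 1, 0 to 4, 0 to 1 and 0 to 5 members.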
